A study of Saccharomyces cerevisiae with 4 samples.

Results

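The mitochondrial ribosomal protein genes of Saccharomyces cerevisiae were examined on 4 expression arrays. They were taken as every spot whose platform gene symbol is MRPL, MRPS, MRP or RSM followed by a number, or MNP1. This gave 65 genes with 1 spot each, among 6051 genes and unnamed spots, and the rule reads symbols alone. 34 of them carry an MRPL symbol or are MNP1 and are called the large-subunit genes here. The other 31 comprise 9 MRPS, 11 RSM and 11 MRP genes. RefSeq holds 3 more symbols of this form, MRP2, MRP10 and MRPL15, which were not analysed here. 2 arrays held RNA from cells with wild-type HSF1 and 2 held RNA from cells with the allele hsf1-R206S/F256S, which changes 2 amino acids of the heat shock transcription factor Hsf1. All 4 samples came from cells kept at 39 °C for 15 min, and no unheated sample was analysed here. The labels name no strain background, no carrier of the allele and no separate cultures, so the p-values measure only the spread between these arrays, which may be technical. They name a lot for each array, so lot and array cannot be told apart.

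Mitochondria build proteins on their own ribosome, which descends from that of bacteria and makes a small set of very hydrophobic membrane proteins, most of them subunits of the respiratory chain and the ATP synthase. Its ribosomal RNA is encoded in the mitochondrial genome, but nearly all of its proteins are encoded in the nucleus, translated in the cytosol and imported. Many of these proteins have a bacterial counterpart, and others occur only in mitochondrial ribosomes. In budding yeast the nuclear mRNAs of many of these proteins are bound by the RNA-binding protein Puf3, and they are controlled apart from the genes of cytosolic ribosomal proteins. Cells without this ribosome cannot respire but can grow by fermentation.

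RefSeq gives a ribosomal protein family name to 63 of the 65 genes. In these names L and S mark the large and small subunit, u and b a family shared with bacteria, and m at the front a family of mitochondria. By these names 38 genes belong to the large subunit and 25 to the small subunit. MRP7 (bL27m), MRP20 (uL23m), MRP35 (bL35m) and MRP49 (mL61) are large-subunit proteins in spite of their symbols. 41 genes have a bacterial counterpart and 22 do not. RSM22, which resembles methyltransferases, and MRP8 have no family name, and MRP8 is a protein of unknown function that was once taken for a ribosomal protein from its sequence.

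Most of these genes gave weak signals. Values are quantile-normalized spot intensities in arbitrary units, and a spot counted as above background on an array when its deposited value exceeded 3 SDs of that array's noise. Wild-type replicate 1 had 33 of the 65 genes above background and wild-type replicate 2 had 18, while mutant replicate 1 had 42 and mutant replicate 2 had 25. The arrays as a whole differed in the same way, since 40.6% and 24.9% of all spots were above background in the wild type and 61.2% and 41.5% in the mutant. The part of this in the results was not tested. 15 of the 65 genes were above background on all 4 arrays and 19 on none. 26 genes (40.0%) had a mean log2 level over the 4 arrays above the mean of the background limits and are called bright, against 36.7% of all genes, a choice that does not use the strains. As a check of the strain labels, all 18 measured genes of a list of Hsf1 targets were lower in the mutant, with a median log2 difference of -3.10. That list was chosen with earlier results of these data known, so the check is not independent of them. A spot on HSF1 itself cannot tell the alleles apart.

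No mitochondrial ribosomal protein gene passed the test between the strains, and the median of the group lay a little below that of all genes. Differences are mutant minus wild type on a log2 scale with an offset of 1.06 added to each intensity. Of the 65 genes, 22 were higher on average in the mutant and 43 lower, with a median log2 difference of -0.28. Over all genes 50.6% had a higher mean and 48.5% a lower one, and the median was 0.015. The quartiles of the 65 genes were -0.72 and 0.30. In limma, 0 of the 65 genes had an adjusted p under 0.05, as was true of 0% of all genes, and the lowest adjusted p among them was 0.305. At an unadjusted p under 0.05 there were 5 of the 65 genes, or 7.69%, against 11.7% of all genes. RNA was taken from whole cultures, so a lower level can come from fewer cells with a transcript or from less of it per cell, and these cannot be told apart.

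A rule of size, with no p-value attached, asked for a 2-fold or greater difference between the strain means and for strains that did not overlap. It held downward for 9 of the 65 genes, or 13.8%, close to the 12.8% of all genes. It held upward for 3 genes, or 4.62%, against 13.5% of all genes. Without regard to size, the mutant arrays lay below the wild-type arrays for 17 of the 65 genes against 19.3% of all genes, and above them for 7 genes against 21.2%, where 40.4% of all genes did not overlap in 1 direction or the other. Without wild-type replicate 1 the rule of size held for 15 genes downward and 10 upward, against 23.0% and 21.2% of all genes, and the median difference became -0.089.

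**Figure D1:**
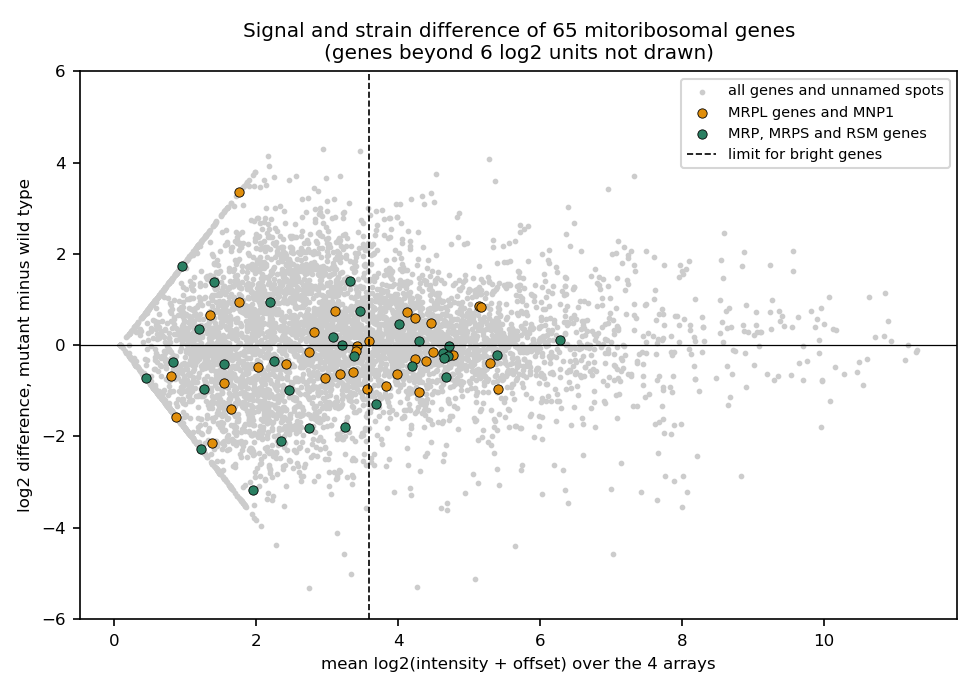
Each point is a gene, with its mean log2 level over the 4 arrays (intensity plus offset) on the horizontal axis and the log2 difference between mutant and wild type on the vertical axis. The 65 mitochondrial ribosomal protein genes are coloured by symbol class, and the differences of the 26 to the right of the dashed limit run from -1.29 to 0.86, while those of the dimmer genes run from -3.18 to 3.36.

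The sign of the median rested on the scaling, while its distance from the other genes did so less. In the deposited values, which have similar means but not similar medians, the median log2 difference was 0.33 for the 65 genes and 0.63 for all genes, and 45 of the 65 had a higher mean in the mutant, as did 70.8% of all genes. There the rule of size held upward for 13 of the 65 genes and 28.1% of all genes, and downward for 5 of the 65 and 5.59% of all genes. The median of the 65 genes lay 0.30 below that of all genes in both cases, with values of -0.30 as deposited and -0.30 after quantile normalization. It was -0.33 when each array was scaled to a common median and -0.34 with cyclic loess, but -0.089 without wild-type replicate 1.

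**Figure D2:**
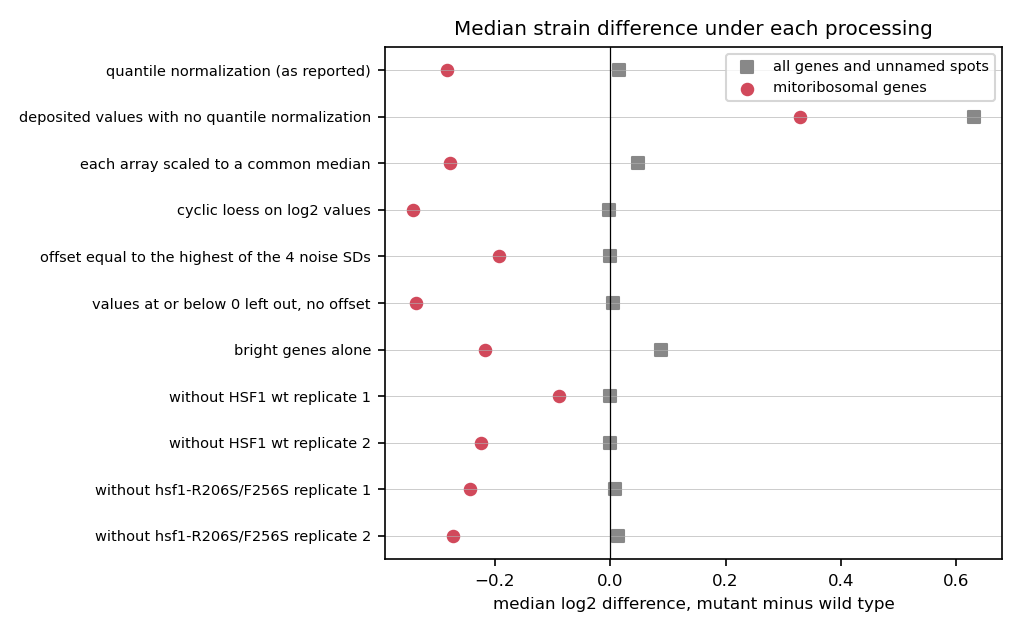
The horizontal axis gives the median log2 difference between mutant and wild type, and each line is 1 way of processing the arrays. The median of the 65 mitochondrial ribosomal protein genes (circles) lies to the left of that of all genes (squares) on every line shown. The medians of the 65 genes are -0.089 without wild-type replicate 1, -0.28 as reported and 0.33 in the deposited values, where that of all genes is 0.63.

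Of the 26 bright genes 17 were lower in the mutant and 9 higher, with a median log2 difference of -0.22, where 45.8% of all 2222 bright genes were lower and their median was 0.088. Both mutant arrays lay above both wild-type arrays for 4 of them against 27.9% of bright genes, and below for 7 against 22.9%. The median size of the strain difference was 0.42, against a median difference of 0.38 between the wild-type replicates and 0.60 between the mutant replicates. Over all bright genes these values were 0.54, 0.47 and 0.42. A strain difference is between means of 2 arrays and a replicate difference between single arrays, so their sizes are given as descriptions. MRPL25 and MRP49 met the rule of size downward, or 7.69% of the 26 against 9.9% of bright genes, and 0 met it upward against 12.7%. The 95% interval of the limma difference held 0 for all 26, and it lay within 2-fold in either direction for 0 of them. With 2 arrays a strain, the test thus leaves room for a 2-fold change in at least 1 direction for each gene.

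**Figure D3:**
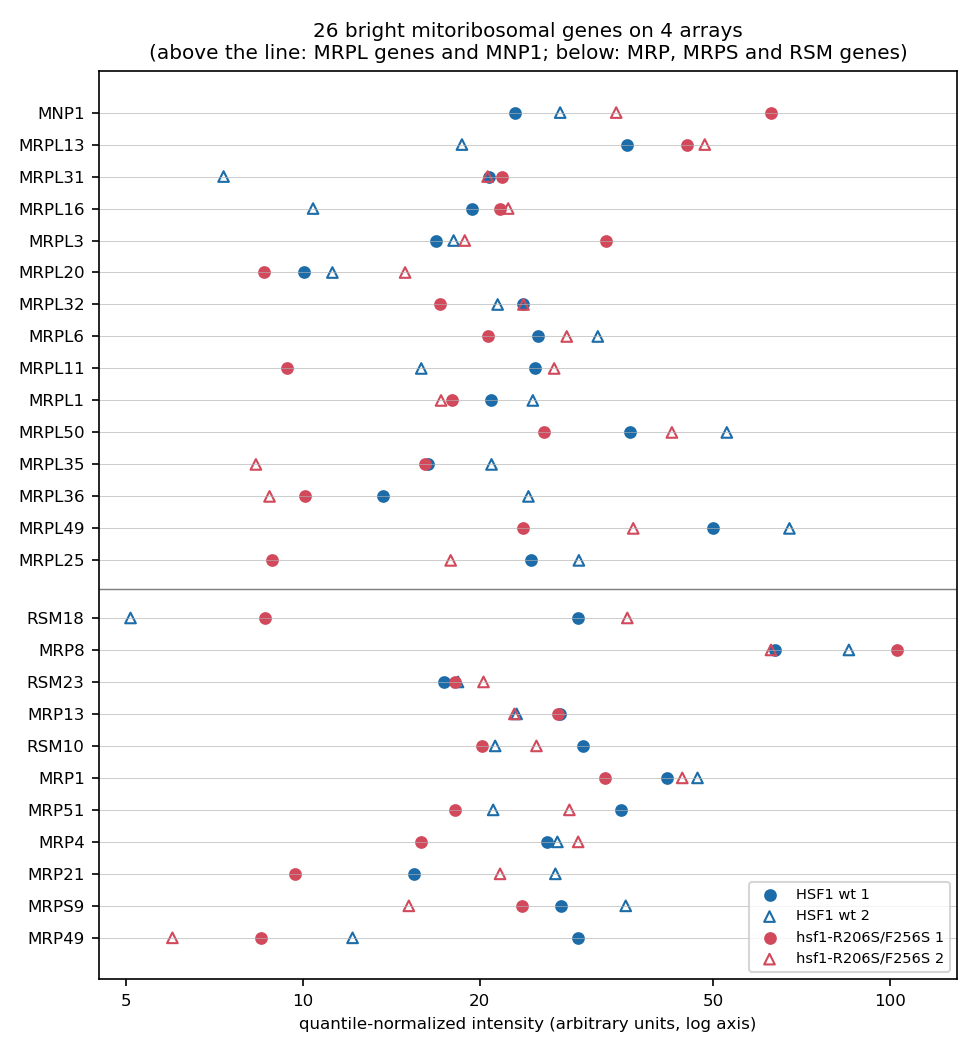
Quantile-normalized intensity (arbitrary units, log axis) of the 26 bright mitochondrial ribosomal protein genes on each of the 4 arrays, ordered within each class by the log2 difference between strains. MNP1 and MRPL13 are highest in the mutant relative to the wild type, MRPL25, MRPL49 and MRP49 lowest, and for most other genes the colours mix.

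Among the large-subunit genes, those of the stalk gave mixed values. The stalk recruits translation factors to the ribosome. MNP1 (YGL068W, bL12m), its mobile protein, gave 23.0 and 27.4 in the wild type and 62.7 and 34.2 in the mutant. Both mutant arrays lay above both wild-type arrays, and the log2 difference was 0.86 (SE 0.49), with a limma adjusted p of 0.626. It went from 0.46 with mutant replicate 1 left out to 1.30 with mutant replicate 2 left out. MRPL11 (uL10m), which anchors the stalk, gave 24.9 and 15.9 in the wild type and 9.40 and 26.8 in the mutant, so the strains overlapped. MRPL19 (uL11m), at the stalk base, was above background on 1 array. MRPL6 (YHR147C, uL6m), also near the stalk base, gave 25.2 and 31.8 in the wild type and 20.7 and 28.1 in the mutant, a difference of -0.22 (SE 0.41, limma adjusted p = 0.861) with overlapping strains. MRPL1 (uL1m), of the mobile arm on the opposite side that accompanies leaving tRNA, gave 20.9 and 24.6 against 17.9 and 17.2. Its mutant arrays were both lower, by -0.35 (SE 0.37).

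Outside the stalk, 2 large-subunit genes with a bacterial counterpart were among those with the highest signals. MRPL49 (YJL096W, bL21m), an rRNA-binding protein, gave 49.97 and 67.4 in the wild type and 23.7 and 36.5 in the mutant. The strains did not overlap, and the difference was -0.95 (SE 0.46, limma adjusted p = 0.560). It ranged from -1.27 without mutant replicate 2 to -0.70 without mutant replicate 1. MRPL50 (YNR022C, bL9m) gave 36.0 and 52.7 against 25.8 and 42.5, which overlap, with a difference of -0.39 (SE 0.49, limma adjusted p = 0.791). The deposited values turned it to 0.10.

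2 proteins of mitochondrial families stood at the ends of the bright MRPL genes that lack a bacterial counterpart. MRPL13 (YKR006C, mL50) gave 35.6 and 18.7 in the wild type and 45.2 and 48.3 in the mutant. The mutant arrays were both higher, by 0.83 (SE 0.50, limma adjusted p = 0.637), and by 0.37 without wild-type replicate 2. MRPL25 (YGR076C, mL59), whose loss was found to lengthen the replicative life span of yeast cells, gave 24.4 and 29.5 in the wild type and 8.86 and 17.8 in the mutant. Both mutant arrays were lower, and MRPL25 met the rule of size at -1.03 (SE 0.51, limma adjusted p = 0.575). That call was lost without mutant replicate 1, at -0.59, and without wild-type replicate 2, at -0.88. It was also lost in the deposited values, at -0.40, and with an offset of 5.18, at -0.83. Of the other bright genes of this kind, MRPL3, MRPL20 and MRPL31 had higher means and MRPL35 a lower one.

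The remaining bright large-subunit genes lay closer together or varied between replicates. MRPL16 (uL16m), which lies near the peptidyl transferase centre, gave 19.4 and 10.4 in the wild type and 21.6 and 22.4 in the mutant, with both mutant arrays higher. MRPL32 (bL32m), which the mitochondrial m-AAA protease trims before it joins the ribosome, gave 23.7 and 21.5 against 17.1 and 23.7, which overlap. MRPL36 (bL31m) gave 13.7 and 24.2 in the wild type and 10.1 and 8.77 in the mutant, both lower, at -0.88 (SE 0.47).

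The genes of the polypeptide exit were too dim to place. MRPL4 (uL29m), MRPL22 (uL22m), MRPL40 (uL24m) and MRP20 (YDR405W, uL23m) surround the tunnel mouth, through which new proteins reach the inner membrane. None of the 4 was above background on any wild-type array. MRPL22 had the highest difference of the 65 genes at 3.36 (SE 1.17), but its values were -2.45 and -2.09 in the wild type and 2.81 and 29.3 in the mutant, so mutant replicate 2 alone was above background. No fold is given for it, since the mutant mean did not exceed the wild-type background limit. MRP20 gave 2.82 and -0.387 against 5.28 and -3.89, which overlap, at 0.35 (SE 1.25, limma adjusted p = 0.940). MRP7 (YNL005C, bL27m), near the peptidyl transferase centre, gave 5.88 and 7.56 against 4.51 and 1.66, with no array above background and a difference of -0.99 (SE 0.54, limma adjusted p = 0.608). MRP7 was at -1.86 without mutant replicate 1, -0.47 without mutant replicate 2 and -0.24 in the deposited values.

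MRP49 (YKL167C, mL61), a large-subunit protein of mitochondria, was the other bright gene past the rule of size. It gave 29.4 and 12.1 in the wild type and 8.50 and 5.99 in the mutant, both of them lower, and was above background on 1 array of each strain. The difference was -1.29 (SE 0.60, limma adjusted p = 0.554). It was -0.68 without wild-type replicate 1, -0.71 in the deposited values and -0.99 with an offset of 5.18, each of which ends the call.

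Among the bright small-subunit genes, 3 of mitochondrial families differed little in their means. MRP1 (YDR347W, mS43), which resembles superoxide dismutases, gave 41.7 and 47.0 in the wild type and 32.7 and 44.3 in the mutant, a difference of -0.21 (SE 0.40, limma adjusted p = 0.861). MRP13 (YGR084C, mS44), a protein of the mitochondrial ribosome alone, gave 27.4 and 23.1 against 27.2 and 22.9. Its difference of -0.011 (SE 0.38, limma adjusted p = 1.00) had a 95% interval from -1.13 to 1.11, so the test leaves room for a 2-fold change in either direction. RSM23 (mS29), a homologue of a GTP-binding protein of mammalian mitochondrial ribosomes, gave 17.4 and 18.4 against 18.1 and 20.3, at 0.10 (SE 0.37). In the deposited values the differences of MRP1 and MRP13 were 0.26 and 0.56.

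3 small-subunit genes tied by yeast genetics to the leaders of mitochondrial mRNAs differed in how they behaved. MRP51 (YPL118W, bS1m) gave 34.8 and 21.1 in the wild type and 18.1 and 28.4 in the mutant, at -0.24 (SE 0.50, limma adjusted p = 0.874), with overlapping strains. MRP21 (bS21m) gave 15.5 and 26.9 against 9.70 and 21.7, which overlap too. RSM28 (YDR494W, mS46) gave 13.1 and 21.0 against 10.7 and 1.15, with both mutant arrays lower, and it met the rule of size at -1.79 (SE 1.01, limma adjusted p = 0.617). That value rests on mutant replicate 2, since it was -0.57 without that array and -3.59 without mutant replicate 1.

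Of the proteins with a bacterial counterpart in the body and head of the small subunit, MRPS9 (YBR146W, uS9m) gave 27.6 and 35.5 in the wild type and 23.6 and 15.1 in the mutant. Both mutant arrays were lower, at -0.69 (SE 0.45, limma adjusted p = 0.665). MRPS9 was at -1.05 without mutant replicate 1, -0.39 without mutant replicate 2 and -0.15 in the deposited values. MRP4 (uS2m) gave 26.1 and 27.1 against 15.9 and 29.4, and RSM10 (uS10m) gave 30.02 and 21.3 against 20.2 and 24.98. The strains overlapped for both genes. RSM18 (bS18m) varied most between replicates among the bright genes, with 29.4 and 5.09 in the wild type and 8.62 and 35.7 in the mutant. MRP8 (YKL142W), which has no family name, gave 63.6 and 85.1 against 103 and 62.7. Its difference of 0.12 (SE 0.47, limma adjusted p = 0.946) was -0.44 with median scaling.

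Most genes with large fitted differences were too dim to give a size. Of the 9 genes past the rule of size downward, 5 were not above background on any array. These are MRP35, MRPS17, MRPL33, MRPS28 and MRPL37, with differences from -3.18 to -1.56. MRP35 (bL35m), the lowest, gave 5.38 and 20.2 in the wild type and 0.510 and -28.2 in the mutant, and its deposited values were under the limit on each array. MRPL33 (uL30m), which had the lowest p of the 65 genes, gave 3.49 and 5.55 against -1.72 and 0.387, a difference of -2.15 (SE 0.45, limma adjusted p = 0.305). In these genes the strains were separate, but within the range of the noise. MRPS8 (uS8m) was above background on 1 wild-type array, with 18.2 and 7.22 against 2.24 and 2.82 in the mutant (limma adjusted p = 0.407). Its wild-type mean on the log2 scale lay 1.44-fold above the mean background limit of the mutant arrays. That is not a minimum fold, since the other wild-type array was itself below background. MRPL24 (bL28m) was likewise dim throughout the mutant and above background on 1 wild-type array. It gave 14.4 and 5.43 in the wild type against 4.92 and 5.20 in the mutant (limma adjusted p = 0.689). Its wild-type mean on the log2 scale lay 1.14-fold above the same mean limit. For MRPL24 too this is not a minimum fold, since wild-type replicate 2 was below background and close to the mutant values. Of the 3 genes past the rule upward, RSM24 (mS35) and RSM27 (mS33) were above background on no array, and the third was MRPL22. The 5 genes with an unadjusted p under 0.05 were MRP35, MRPL33, MRPL37, MRPS28 and MRPS8, all lower in the mutant.

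The large-subunit genes and the others did not separate. The median log2 difference was -0.32 for the 34 large-subunit genes, with 11 higher, and -0.25 for the other 31, with 11 higher. Over the bright genes alone the medians were -0.22 for 15 large-subunit genes and -0.21 for 11 others. The median log2 level of the large-subunit genes was 3.80 and 3.65 in the wild type and 3.35 and 3.45 in the mutant, with both mutant arrays lower. That of the other genes was 3.41 and 3.71 against 3.21 and 2.89, again with both mutant arrays lower. On single arrays, the large-subunit median level minus that of the other genes had a pooled within-strain SD of 0.30, given as a description. The difference between the 2 medians of log2 differences was -0.078. It changed sign, for example to 0.11 with median scaling, 0.023 in the deposited values and 0.18 without wild-type replicate 2. With MRP7, MRP20 and MRP49 counted in the large subunit it was -0.11, and with MRP35 as well -0.12, the last alternative being chosen after seeing the data. 2 arrays against 2 allow no exact two-sided p below 0.333.

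The medians of the symbol families lay further apart, but few of these genes were bright. 2 of the 9 MRPS genes had a higher mean, with a median of -0.72, and 7 of the 11 RSM genes, with a median of 0.46. 1 MRPS and 3 RSM genes were bright, and the RSM median was -0.034 when values at or below 0 were left out. Without wild-type replicate 2 the medians were -1.23 (MRPS) and 0.13 (RSM), the RSM median was 0.18 without mutant replicate 1, and in the deposited values they were -0.27 and 1.15. The difference between these families was not tested. MRPS12 (uS12m) and RSM19 (uS19m) are neighbours in the genome and the 1 adjacent pair among the 65 genes. MRPS12 was above background on no array, while RSM19 gave 17.2 and 1.02 in the wild type and 12.9 and 17.96 in the mutant, which overlap. The 41 genes with a bacterial counterpart had a median of -0.39 with 10 higher, and the 22 without one a median of -0.064 with 10 higher. In the deposited values both medians were above 0, at 0.25 and 0.55, and without wild-type replicate 1 their order turned, at -0.086 and -0.38.

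Mitochondrial ribosomal proteins under other names gave similar values. 10 of 12 listed genes were measured, 3 had a higher mean, and the median was -0.35, or 0.30 in the deposited values. MHR1, which also acts in recombination of mitochondrial DNA, gave 49.9 and 37.0 in the wild type and 49.4 and 59.0 in the mutant, with overlapping strains. PET123 gave 34.9 and 31.0 against 22.9 and 26.8, both lower, at -0.39 (SE 0.38). MRX14 and IMG2, 2 of the 10, met the rule of size downward, against 12.8% of all genes, and neither was bright.

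The other genes of mitochondrial translation likewise had 0 members past an adjusted p of 0.05 in limma. Of 9 soluble translation factors 1 had a higher mean, with a median of -0.38, or -0.071 over the 3 bright ones. The rule of size held for 0 of the 9 in either direction, against 13.5% upward and 12.8% downward of all genes. The 1 with a higher mean was RRF1, the ribosome recycling factor, with 24.6 and 10.5 in the wild type and 23.6 and 35.1 in the mutant. MRF1, the release factor, gave 16.8 and 11.5 against 10.6 and 16.4. Both overlapped between strains, and the median of the list was 0.52 in the deposited values and 0.15 without wild-type replicate 1. Of 9 genes for ribosome assembly, rRNA modification and docking at the membrane 5 had higher means, with a median of 0.13, or -0.14 over the 4 bright ones and -0.32 without mutant replicate 1. 1 of the 9, MRH4, met the rule of size upward, against 13.5% of all genes, and it was not bright. OXA1, the insertase that takes up new proteins, gave 41.5 and 33.7 against 39.3 and 58.1. MBA1, a ribosome receptor of the inner membrane, gave 12.2 and 17.5 against 7.34 and 11.7, with both mutant arrays lower.

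The genes of the cytosolic ribosome and of the respiratory chain, set beside these, lay on either side of them. Of 132 genes for cytosolic ribosomal proteins 113 were higher on average in the mutant, with a median log2 difference of 1.26. Of these 132 genes, 74 (56.1%) met the rule of size upward and 4 (3.03%) downward, against 13.5% and 12.8% of all genes. 32 of 35 genes of the respiratory chain and the ATP synthase had a lower mean, with a median of -1.03. Of the 35, 18 (51.4%) met the rule downward and 0 upward. Most of the 65 mitochondrial ribosomal protein genes encode proteins of the ribosome that makes core subunits of that chain. The 65 genes had 3 (4.62%) upward and 9 (13.8%) downward, the latter close to the share of all genes, and a median of -0.28. In the deposited values the 3 medians were 1.57, -0.46 and 0.33, in the same order. There, 8 respiratory genes met the rule downward and 1 upward, against 5.59% and 28.1% of all genes. The differences between these lists were not tested. The per-array median log2 levels of the bright genes were 4.71 and 4.54 in the wild type and 4.34 and 4.61 in the mutant for the mitochondrial ribosomal protein genes, which overlap. For the cytosolic ones they were 5.15 and 5.06 against 6.60 and 6.32, both higher in the mutant. For the respiratory genes they were 5.64 and 5.71 against 4.90 and 4.71, both lower.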

How the data were processed

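Each array has 1 deposited intensity per spot, on a linear scale, which the authors measured after copying total RNA with oligo(dT) and 33P-dCTP, per the labels. Negative values on each array and means of 32.4 to 32.6 point to background subtraction and scaling to a common mean. The software was not given in the sources used here. Median deposited intensities were 6.28 and 5.86 (wild type) and 11.9 and 8.49 (mutant). Array number limits the precision.

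Intensities were quantile-normalized in R 4.3.3 (limma 3.58.1). After negative values were raised to 0, the 5th percentile of positive values, 1.06, was added before log2 was taken, which shrinks and blurs differences of dim genes. Noise SDs came from negative values (2.80 to 5.18). Spots of 1 gene were averaged, in 32 genes. Symbols are from GEO's platform annotation, which named 5523 of 6084 spots. All 5523 matched RefSeq's gene table of assembly R64 and 0 changed. Strains were compared in limma with lmFit and eBayes, two-sided, over the 4 arrays and with no block. P-values were adjusted by Benjamini-Hochberg for 6051 genes. The procedure was also run on simulated data. The outcome of that run is not given here, so no conclusion about weak signals is drawn from it. Alternatives changed normalization, offset, dim genes, arrays and membership. Named with a full test were the 5 genes per class with the highest mean level, those past the rule of size and above background on both arrays of a strain, and MNP1, MRP7, MRP20, MRP49 and MRP8. Others were named after their values were seen, for their role or size. In other lists, the highest and lowest genes above background were named, and PUF3 and HAP4. The members and lists were chosen with earlier results of these data known.

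Same-numbered arrays deviated together with a correlation of 0.02 over all genes, so the replicate numbers were not taken as pairs.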

Additional observations from a re-analysis of the deposited data

How the results depend on the processing

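The results are limited by 2 arrays per strain, by the choice of scaling and by weak signals, since 39 of the 65 genes were not bright. With a replicate block, 0 genes passed an adjusted p of 0.05, as without it, and 3 of the 65 passed an unadjusted p of 0.05 in place of 5. The block changed no other call. In the deposited values, 45 genes had a higher mean (70.8% of all genes), 13 and 5 met the rule of size upward and downward (28.1% and 5.59% of all genes), 3 passed an unadjusted p of 0.05, and the medians were 0.33 (all 65), 0.33 (large subunit) and 0.31 (others). Median scaling gave 3 genes at an unadjusted p of 0.05 and -0.33 from the median of all genes. Cyclic loess gave a median of -0.34, also -0.34 from all genes. An offset of 5.18 gave 1 gene upward and 4 downward, where the shares of all genes also fell, to 7.70% and 6.63%. It gave 3 genes at an unadjusted p of 0.05, and a median of -0.19 for all, for the large subunit and against all genes. Leaving out values at or below 0 gave 0 upward (8.43% of all genes), a median of -0.34 and -0.34 against all genes, over 60 genes with a value. Over bright genes alone, 12 of 2222 genes passed an adjusted p of 0.05 in limma, 0 of them among the 26 tested here. Of the 26, 1 passed an unadjusted p of 0.05 and 9 had a higher mean (54.1% of bright genes). The rule of size held upward for 0 (12.7% of bright genes) and downward for 2 (9.9%), and the medians were -0.22 (all) and -0.22 (large subunit). Leaving out 1 array each gave 4 to 10 genes upward, 12 to 15 downward, 22 to 29 with a higher mean, 3 to 11 at an unadjusted p of 0.05, medians from -0.27 to -0.089 (all), -0.23 to -0.18 (large subunit) and -0.40 to -0.089 (others), large minus other from -0.088 to 0.18, and -0.29 to -0.089 against all genes. A fit with 1 array in a strain assumes that it varies like the others, and the rule of size then also holds for more of all genes. Those shares were 21.2% upward and 23.0% downward without wild-type replicate 1, and 17.3% and 18.2% without wild-type replicate 2. They were 20.2% and 16.5% without mutant replicate 1, and 19.9% and 16.9% without mutant replicate 2. The counts at an unadjusted p of 0.05 in this section have no share of all genes beside them. They are therefore not read against the background.

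Single genes turned sign as follows. In the deposited values, MRPL50, MRPL6, MRP1, MRP13 and MRP51 were 0.10, 0.35, 0.26, 0.56 and 0.30, and there MNP1, MRPL13, MRPL49 and RSM28, which kept their sign, were 1.34, 1.30, -0.54 and -1.10. MRP8 was -0.44 with median scaling. With 1 array left out at a time, MRP8 ranged from -0.24 to 0.48, MRP1 from -0.43 to 0.00011, MRP13 from -0.13 to 0.11, MRP51 from -0.58 to 0.10 and MRP20 from -0.85 to 1.67, while MRPL50 ran from -0.74 to -0.034 and MRPL6 from -0.43 to -0.015 with no change of sign. The cause of these changes was not tested.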

Other observations

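The nuclear genes that act on single mitochondrial mRNAs had a median log2 difference of -0.35, with 5 of 16 higher in the mutant. The median was 0.33 in the deposited values, -0.70 with wild-type replicate 1 left out and -0.64 with mutant replicate 2 left out. MSS51, which activates translation of the COX1 mRNA, gave 55.2 and 35.1 in the wild type and 39.2 and 41.9 in the mutant, and PET494, for the COX3 mRNA, gave 21.5 and 26.5 against 12.8 and 17.8, with both mutant arrays lower. Among genes of the list above background on both arrays of a strain, AEP1 had the highest and CBP1 the lowest difference, and each had 1 wild-type array far from the other. AEP1, needed to make subunit c of the ATP synthase, gave 19.7 and -35.4 against 18.9 and 14.9, and CBP1, which stabilizes the COB mRNA, gave 11.9 and 70.2 against 15.2 and 11.98. MSS51 and PET494 were named after their values were seen. Of 7 measured genes of mitochondrial transcription and RNA turnover 1 was higher, with a median of -0.76, -0.20 in the deposited values and -2.01 without wild-type replicate 1, and 3 were bright. ABF2, which packages mitochondrial DNA, gave -2.52 and 74.2 against 15.7 and 12.6, and RMD9, which stabilizes mitochondrial mRNAs, gave 18.3 and 31.99 against 18.8 and 10.1.

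Among 10 regulators of ribosomal and mitochondrial genes 2 were higher in the mutant, with a median of -0.80, or -0.043 in the deposited values and -0.021 without mutant replicate 1. HAP1, 1 of those 2 and the heme-responsive activator of respiratory genes, gave 215 and 95.2 in the wild type and 513 and 523 in the mutant. Both mutant arrays were higher, by 1.85 on the log2 scale (SE 0.57, limma adjusted p = 0.386). HAP2, a DNA-binding subunit of the CCAAT-binding activator, gave 60.5 and 27.1 against 17.7 and 17.6, both lower, at -1.16 (SE 0.56, limma adjusted p = 0.561). HAP4, its activating subunit, gave 26.7 and 16.2 against 14.02 and 20.05, which overlap. PUF3, the mRNA-binding regulator of many mitochondrial ribosomal protein mRNAs, gave 112 and 36.6 against 32.4 and 67.0, which overlap.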
